A study of Mus musculus with 220 samples.

Results

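Dedifferentiated high endothelial cells (HEC) were set against blood endothelial cells (BEC) of mouse lymph nodes, to see which high endothelial features remain when the ligands of the lymphotoxin β receptor are captured. The members were all 44 cells titled as dedifferentiated HEC and all 32 titled as BEC, 76 of the 220 single cells of the series, chosen by label and not by any measured value. The dedifferentiated HEC came from C57BL/6 mice that received 1 intraperitoneal injection of LTBR-Ig and were harvested on day 7. LTBR-Ig is a soluble decoy made of the receptor and an immunoglobulin part. The 79 homeostatic HEC, given beside them as a yardstick, and the 32 BEC came from untreated C57BL/6 mice. Cells were sorted by flow cytometry from dissociated nodes, and each was captured and amplified on its own on the Fluidigm C1 microfluidic system. The sources used here give neither the antigens of the sort gate nor the age and number of the animals or the capture chips, so whether the sort itself selected on any feature described here was not tested.

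High endothelial cells line the post-capillary venules at which lymphocytes leave the blood for the node. They decorate sialomucins with sulfated, fucosylated and sialylated sugar chains that L-selectin on lymphocytes binds, display chemokines that arrest the rolling cells, and express adhesion molecules for the passage through the wall. Lymphotoxin from dendritic cells and lymphocytes signals through the lymphotoxin β receptor on HEC to both arms of NF-κB, of which the alternative arm ends in RelB and the processed product of Nfkb2, and high endothelial shape and sugar coat are known to depend on that signal. BEC come from the remaining blood vessels, such as capillaries and arteries.

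Levels are FPKM, that is, fragment numbers scaled to transcript length and to all fragments mapped in that cell, so levels of different genes can be compared. A difference is the mean log2(FPKM + 1) over dedifferentiated HEC minus that over BEC, and an SD is the spread over cells. Since the labels tie no cell to an animal, a group is 1 sample here. No test was run, no p-value is given, and group, treatment, day and chip cannot be told apart. A gene is called higher or lower at a difference of at least 2 in size, a limit of size and not of significance. Between the odd- and even-numbered dedifferentiated HEC alone, 62 of 8385 measured genes (0.739%) lay past that limit, and between the corresponding BEC 174 (2.08%). A gene counted as measured when over 10% of the cells of either group reached an FPKM of 1. Intervals are exact Clopper-Pearson 95% intervals, the limit given for a count of 0 is instead the share that 3 cells would make, and both cover counting error over cells only. Summed FPKM ranged from 448407 to 857249 in dedifferentiated HEC and from 443883 to 533120 in BEC. The median number of genes at an FPKM of 1 or more was 3075 in dedifferentiated HEC, 3842 in homeostatic HEC and 2870.5 in BEC, and its part in shares of cells and in list medians of homeostatic HEC was not tested. The approximated depth had a median of 2121544 fragments in dedifferentiated HEC and of 1990344 in BEC.

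The labelled cell types were checked against marker genes. All 7 high endothelial markers (Glycam1, Ccl21a, Fut7, Chst4, Gcnt1, Ubd and Enpp2) were higher in dedifferentiated HEC than in BEC, with a median difference of 5.62, where 2.9% of all measured genes were higher and the median of all was -0.01. Among the 12 general blood endothelial markers, none was higher and 2 (Kdr and Flt1) were lower, where 1.77% of all measured genes were lower. The 7 high endothelial markers summed to a median of 81508 FPKM in dedifferentiated HEC and 454 in BEC. All 44 dedifferentiated HEC, but also 26 of 32 BEC, reached an FPKM of 10 for 3 or more of them. With markers of other cell types, 1 of 44 dedifferentiated HEC, 7 of 79 homeostatic HEC and 1 of 32 BEC did so. In dedifferentiated HEC these were B lymphocyte and pan-leukocyte genes and in BEC pericyte genes. In homeostatic HEC, 6 cells did so for B lymphocyte genes, 5 for pan-leukocyte genes and 1 for myeloid genes, and the part of these cells in the homeostatic values below was not tested. In dedifferentiated HEC the lymphatic markers Prox1 and Reln, the pericyte markers Pdgfrb, Acta2, Myh11, Cspg4 and Notch3, and the fibroblastic reticular markers Pdgfra, Col1a1, Col1a2, Dcn, Lum and Ccl19 were at 0 in every cell. The remaining lymphatic markers Lyve1, Pdpn, Flt4 and Mmrn1 reached an FPKM of 1 in 2, 0, 2 and 1 of 44 dedifferentiated HEC, and the list summed to 0 to 522 FPKM in dedifferentiated HEC and 0 to 134 in BEC, with a median of 0 in dedifferentiated HEC and of 0.28 in BEC. The remaining pericyte markers Rgs5 and Kcnj8 reached it in 3 and 0 cells, and that list summed to 0 to 483 FPKM in dedifferentiated HEC and 0 to 1043 in BEC. Among dedifferentiated HEC a single cell stood apart: cell 16 reached an FPKM of 10 for 13 of the 15 genes furthest below BEC, where the other 43 dedifferentiated cells reached it for 0 to 5, and also for 13 of the 15 genes furthest above BEC. Its Glycam1, at 127 FPKM, was the lowest of the group, while Lrg1 was at 3166 FPKM and Ackr1 at 2617 FPKM. It also held the highest Rgcc, Cd36 and Pcp4l1 of its group, at 324, 317 and 342 FPKM. The lymphatic marker Mmrn1 at 277 FPKM and the pericyte marker Rgs5 at 117 FPKM were present in it as well. Without it 235 genes were higher and 153 lower. Such a mixture was not particular to this group. Homeostatic cells 67, 64 and 13 reached an FPKM of 10 for 12, 11 and 10 of the 15 genes furthest below BEC. For the 15 genes furthest above BEC they reached it in 13, 15 and 14.

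Across all genes, 243 of 8385 (2.9%) were higher and 148 (1.77%) lower in dedifferentiated HEC than in BEC, so that 62.1% of the called genes were higher. That split turned with the scale: with all cells scaled to an equal sum of FPKM, which moved the median of all genes to -0.17, 211 were higher and 299 lower (41.4% higher), and with Glycam1 and Ccl21a left out of the sum 269 and 261 (50.8% higher). For comparison, homeostatic HEC minus BEC gave 447 of 9248 genes higher (4.83%) and 103 lower (1.11%), and the median of all genes was -0.01 for dedifferentiated HEC and 0.28 for homeostatic HEC. A list's median in homeostatic HEC is therefore to be read against 0.28. Counts of list members are likewise to be read against 2.9% higher and 1.77% lower in dedifferentiated HEC. For homeostatic HEC those shares are 4.83% and 1.11%. The lists were chosen with earlier results of these data known, so these counts describe their members and test nothing. The same BEC enter both differences, so the values of both are set side by side below and no overlap was computed. Ccl21a was the 1 gene (0.0119%) whose FPKM was above every BEC in all 44 dedifferentiated HEC, and no gene lay below every BEC in all of them. In 42 genes (0.501%) at least 22 of the 44 cells were above every BEC.

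The genes furthest above BEC were Ccl21a, Lrg1, Apoe, Ackr1, Ubd, Pglyrp1, Glycam1, Dclk1, Spint2, Cd63, Tspan7, Chst4, Nmt2, Il6st and Tgfbi, with differences from 9.38 down to 4.9994 for Tgfbi. In homeostatic HEC the same 15 genes had differences between 3.12 and 8.91. Furthest below were Rgcc, Rbp7, Gpihbp1, Cxcl12, Cd36, Ly6c1, Slc9a3r2, Itm2a, Sparcl1, Pcp4l1, Rsad2, Ednrb, Igfbp3, Thbd and Mcf2l, from -8.17 to -4.28, and homeostatic HEC had -7.31 to -4.24 for them. All 30, which were picked for the size of their difference, stayed past 2 under each of 12 other ways of computing it. Of all 83 list members or named genes past 2, 47 did so. For Glycam1 and Pglyrp1 dedifferentiated HEC stood less far above BEC than homeostatic HEC did, with 6.49 and 6.67 in dedifferentiated HEC against 8.91 and 8.77 in homeostatic HEC. For Apoe, Nmt2 and Lrg1 they stood further above, with 7.90, 5.25 and 8.33 in dedifferentiated HEC against 5.56, 3.12 and 6.85 in homeostatic HEC.

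**Figure D1:**
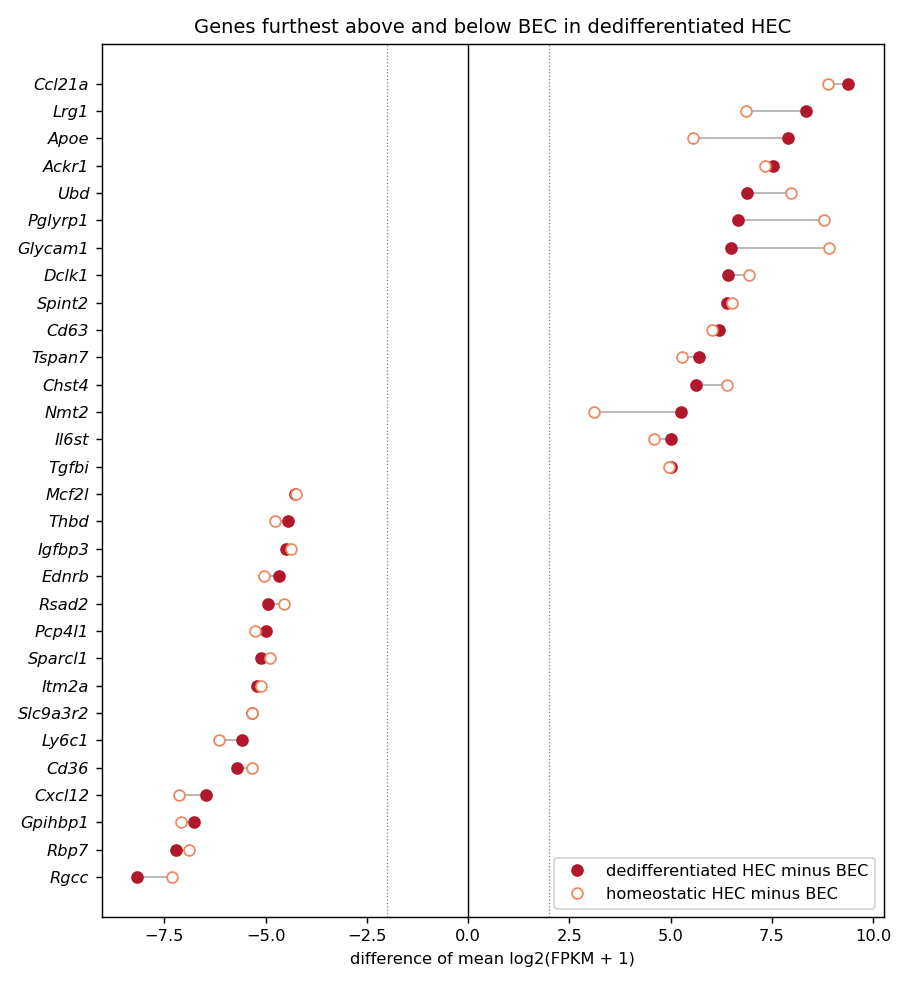
Difference of mean log2(FPKM + 1) from BEC for the 15 genes furthest above and the 15 furthest below BEC in dedifferentiated HEC, shown for dedifferentiated HEC (filled) and homeostatic HEC (open). Dotted lines mark differences of 2 and -2, and both differences use the same 32 BEC. The filled points run from -8.17 for Rgcc to 9.38 for Ccl21a.

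The carriers of the sugar ligands differed among themselves. Glycam1, a secreted sialomucin of high endothelium, had its lowest, median and highest FPKM at 127, 7027 and 127279 in dedifferentiated HEC, at 49.6, 59091 and 295547 in homeostatic HEC and at 32.8, 66.2 and 594 in BEC. Its mean log2 level was 12.71 ± 2.33 in dedifferentiated HEC and 6.22 ± 0.89 in BEC (SD, n = 44 and 32), and 42 of 44 dedifferentiated HEC lay above every BEC. Every BEC held some Glycam1 and Ccl21a, so detection alone does not part the groups for these genes, and where that low level comes from was not tested. Podxl, the podocalyxin core protein, had 0, 0.42 and 619 FPKM in dedifferentiated HEC and 0.36, 53.6 and 887 in BEC, a difference of -3.65 (-4.25 in homeostatic HEC), or -1.89 as a log2 ratio of arithmetic means and -1.96 with a pseudocount of 10. Cd34 and Emcn, sialomucins that other vessels carry too, had differences of 0.89 and -0.18. Of the 6 carriers in the list, 4 were measured, with 1 higher, 1 lower and a median of 0.35. Madcam1, the mucosal addressin, was at an FPKM of 1 in none of the 44 dedifferentiated HEC and none of the 32 BEC.

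The enzymes that build the sugar chains parted from each other. Of 13 in the list 11 were measured, 4 were higher and none lower, with a median of 0.73 (in homeostatic HEC 4 of 12, median 1.18). Chst4, the sulfotransferase restricted to high endothelium in the node, had 0.59, 105 and 4242 FPKM in dedifferentiated HEC as lowest, median and highest, and 0, 0.53 and 1.37 in BEC. It reached an FPKM of 10 in 31 of 44 dedifferentiated HEC (70.5%, interval 54.8% to 83.2%) and in none of 32 BEC, which allows a share of up to 9.38%, and 42 cells were above every BEC. Fut7, the fucosyltransferase that completes the L-selectin ligand, had 0, 44.2 and 1029.8 FPKM in dedifferentiated HEC and 0, 0.37 and 155 in BEC, reaching 10 in 25 of 44 and 1 of 32 cells. The single high BEC limited the count above every BEC to 16, and it was 27 without that cell. Gcnt1, which makes the core branch on which part of the ligand is built, had 0, 0.65 and 473 FPKM in dedifferentiated HEC, 0, 133 and 724 in homeostatic HEC and 0, 0.22 and 3.13 in BEC. The median dedifferentiated cell thus lay inside the range of BEC for Gcnt1, while 16 of 44 cells (36.4%, interval 22.4% to 52.2%) reached an FPKM of 10, against 69 of 79 homeostatic HEC and none of 32 BEC. Its difference from BEC was 2.25 (6.09 in homeostatic HEC), and 1.18 with a pseudocount of 10. Chst2, the second sulfotransferase of the ligand, was at 2.36 (3.12 in homeostatic HEC) and dropped to between 1.12 and 1.92 under 3 of the 12 alternatives. B3gnt3, which extends the unbranched core, and the sialyltransferase St3gal6 were at 1.17 and 0.73. Of 10 measured suppliers of sugar and sulfate donors, none was past 2 in either direction on the main scale. As a log2 ratio of arithmetic means, Gmds, Gne, Tsta3, Slc35b2 and Slc35a1 came to 4.57, 3.60, 3.29, 2.98 and 2.05, and Papss1 to -5.29. The same measure put 1054 of 8385 genes higher and 763 lower.

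Cell by cell, the 3 enzymes formed different combinations. At an FPKM of 10, Fut7, Chst4 and Gcnt1 were all present in 9 of 44 dedifferentiated HEC (20.5%, interval 9.80% to 35.3%), in 59 of 79 homeostatic HEC (74.7%, 63.6% to 83.8%) and in none of 32 BEC. The commonest state in dedifferentiated HEC was Fut7 with Chst4 but without Gcnt1, in 10 cells, followed by Chst4 alone in 8. None of the 3 reached that level in 7 of 44 dedifferentiated HEC, 2 of 79 homeostatic HEC and 31 of 32 BEC. Of the 6 genes Glycam1, Ccl21a, Fut7, Chst4, Gcnt1 and Ubd, each dedifferentiated cell had at least 2 above every BEC. All 6 were above in 8 cells, 5 in 15, 4 in 16, 3 in 4 and 2 in 1, which was cell 16, while 46 of 79 homeostatic HEC had all 6. These counts include low levels, since the highest BEC held only 1.37 FPKM of Chst4. The 2 genes of cell 16 were Ccl21a at 699 FPKM and Chst4 at 1.67 FPKM.

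**Figure D2:**
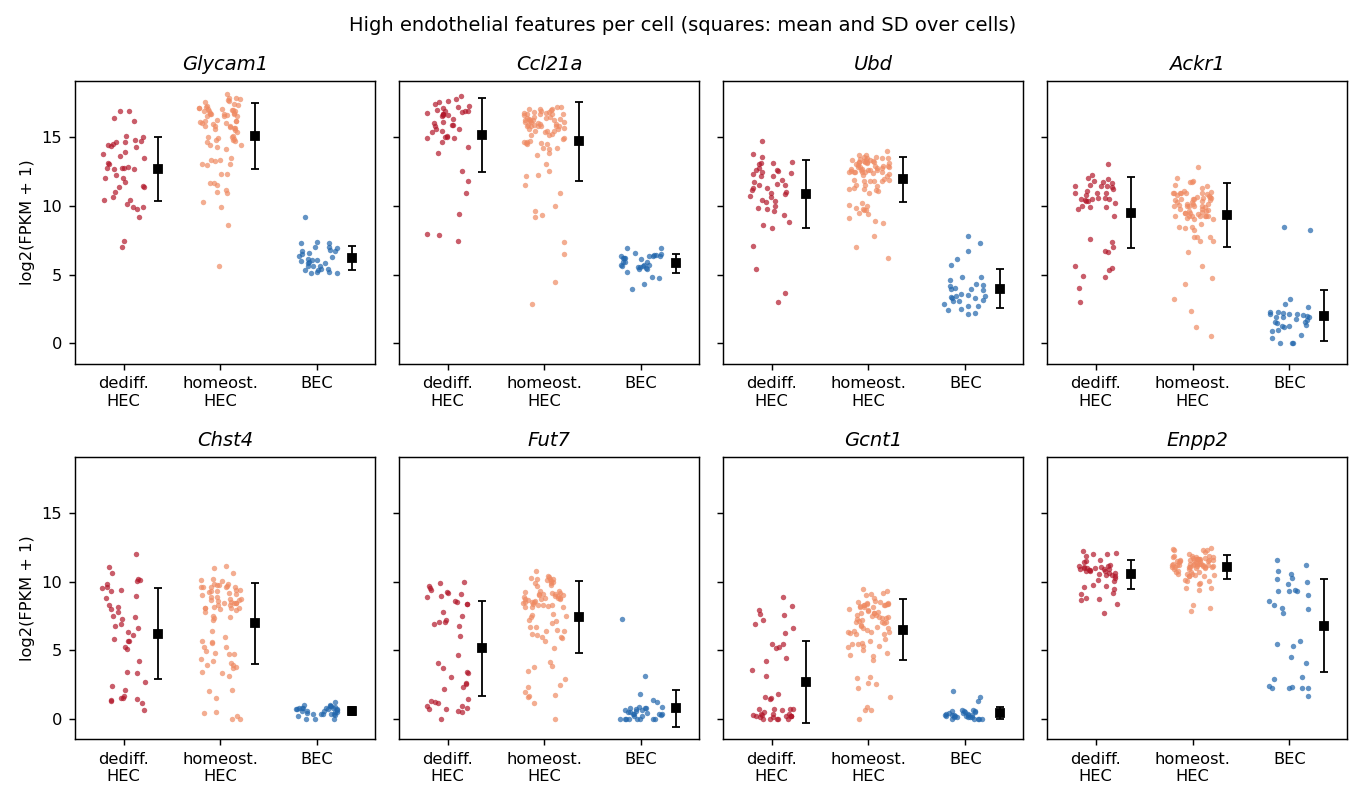
Level of 8 high endothelial genes as log2(FPKM + 1), 1 point per cell, in 44 dedifferentiated HEC, 79 homeostatic HEC and 32 BEC, with squares and bars for the mean and SD over cells. Ccl21a of every dedifferentiated HEC lies above every BEC, whereas the points of Fut7, Chst4 and Gcnt1 spread from the level of BEC to that of homeostatic HEC, with 16 of 44 dedifferentiated cells at an FPKM of 10 or more for Gcnt1.

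Among chemokines, Ccl21a and Cxcl12 lay at opposite ends. Ccl21a, which binds CCR7 on naive lymphocytes and stops them on the vessel wall, had 176, 64279 and 260221 FPKM in dedifferentiated HEC, 6.37, 57488 and 152252 in homeostatic HEC and 14.8, 60.1 and 123 in BEC. Its difference of 9.38 was the largest of all named genes (8.88 in homeostatic HEC). Near-identical copies of the gene exist, so how its reads divide with Ccl21b, which was at 2.37 (2.82 in homeostatic HEC), is uncertain. Ccl21b came to 0.67 with a pseudocount of 10 and to 1.07 with values under an FPKM of 10 set to 0. Of a cell's summed FPKM, Glycam1 with Ccl21a made up 11.8% at the median in dedifferentiated HEC, 20.8% in homeostatic HEC and 0.029% in BEC. Cxcl12, the CXCR4 ligand, had 0, 0.39 and 482 FPKM in dedifferentiated HEC and 3.37, 476 and 2604 in BEC, with 30 of 44 dedifferentiated HEC below every BEC. Cxcl1, a neutrophil chemokine, had 0, 0 and 464 FPKM in dedifferentiated HEC and 0, 0 and 301 in BEC, a difference of 0.11, where homeostatic HEC had 3.97. Pf4, a platelet chemokine, was likewise at 0.20 in dedifferentiated HEC and 3.40 in homeostatic HEC. Of the other platelet markers Ppbp, Gp9 and Gp1bb were at 0 in every cell of all 3 groups, while Itga2b reached an FPKM of 1 in 4 of 44 dedifferentiated HEC, 5 of 79 homeostatic HEC and 0 of 32 BEC. The 5 platelet markers summed to at most 385 FPKM in dedifferentiated HEC, 1572 in homeostatic HEC and 209.6 in BEC. In all, 2 of 8 measured chemokines were higher (Ccl21a and Ccl21b) and 1 lower, and Ccl19 and Cxcl13 were at 0 in every dedifferentiated cell.

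Genes of lymphocyte arrest and passage were higher in part. Of 16 measured adhesion genes 4 were higher and 1 lower, with a median of 0.82. Ackr1, the atypical chemokine receptor that carries chemokines across venular endothelium, had 6.91, 1440.1 and 8563 FPKM in dedifferentiated HEC and 0, 2.52 and 346 in BEC, with 32 of 44 cells above every BEC. Cd63, the tetraspanin that helps to hold P-selectin at the surface, was at 6.19 and reached an FPKM of 10 in 37 of 44 dedifferentiated HEC and 2 of 32 BEC. Icam1, the ligand of the lymphocyte integrin LFA-1, had 0, 48.3 and 1391 FPKM in dedifferentiated HEC and 0, 0.39 and 74.9 in BEC, a difference of 4.16 (4.75 in homeostatic HEC). P-selectin, Selp, had 0.09, 10.4 and 412 FPKM in dedifferentiated HEC and 0, 0.27 and 1.35 in BEC, and 33 of 44 cells were above every BEC. Its difference of 3.27 was 1.59 with a pseudocount of 10. Vcam1, a ligand of the integrin VLA-4, was at 1.23 (2.06 in homeostatic HEC). Jam3, a junctional adhesion molecule, was the lower member, at -2.02 where homeostatic HEC had -0.03. Jam3 came to between -1.43 and -1.50 under 3 of the 12 alternatives, among them odd-numbered cells alone.

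Lysophospholipid genes went both ways. Enpp2, or autotaxin, makes lysophosphatidic acid, which supports the passage of lymphocytes through high endothelium. It was present in all cells of both groups, with 213, 1764 and 4899.7 FPKM in dedifferentiated HEC and 2.19, 259 and 3127 in BEC, so that the ranges overlapped and 5 of 44 dedifferentiated HEC were above every BEC (2 with all cells scaled to an equal sum). Its difference of 3.72 was reduced to 1.72 when arithmetic means were compared as a log2 ratio. The phosphatases Ppap2a and Ppap2b, which break lysophosphatidic acid down, were lower, at -3.92 and -3.73 (-3.91 and -4.26 in homeostatic HEC). Ppap2b had 0, 26.8 and 589 FPKM in dedifferentiated HEC and 1.12, 391 and 2825 in BEC. The remaining 7 of 10 measured genes of this list lay between -2 and 2. Among these was a further phosphatase of the family, Ppap2c, on the other side at 1.79 (0.87 in homeostatic HEC). Ppap2c stayed between the limits in 8 of the 12 alternatives and was at 6.09 as a log2 ratio of arithmetic means.

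Of 20 measured genes of the receptor and NF-κB, 3 were higher and none lower in dedifferentiated HEC, against 2.9% and 1.77% of all genes, and their median of -0.05 lay next to that of all genes, -0.01. In homeostatic HEC 6 of 21 were higher, with a median of 0.71 where that of all genes was 0.28. Nfkb2, the precursor of the alternative arm, had 0, 0.14 and 341 FPKM in dedifferentiated HEC, 0, 6.13 and 307 in homeostatic HEC and 0, 0.17 and 95 in BEC. It reached an FPKM of 10 in 7 of 44, 37 of 79 and 4 of 32 cells of these groups, with medians under 1 in dedifferentiated HEC and BEC alike. Tnfaip3, the feedback inhibitor A20, reached that level in 6 of 44 dedifferentiated HEC, 30 of 79 homeostatic HEC and 4 of 32 BEC, with a difference of 0.28 in dedifferentiated HEC and 2.16 in homeostatic HEC. Birc3, another feedback target, was at -0.23 in dedifferentiated HEC and 1.50 in homeostatic HEC, and Nfkbie at 0.36 and 1.54. Relb was at 1.203 in dedifferentiated HEC (2.12 in homeostatic HEC), and between 0.15 and 2.84 under the 12 alternatives. The inhibitor gene Nfkbia was at 1.56 (2.32). The receptor Ltbr was at -0.24 in both HEC groups. The 3 higher members were Ubd, Tnfrsf1a and Birc2. Ubd, a ubiquitin-like protein that inflammatory cytokines induce, had 6.88, 2532 and 27600.3 FPKM in dedifferentiated HEC and 3.32, 10.7 and 229 in BEC, and 40 of 44 cells were above every BEC. Tnfrsf1a, the type 1 tumour necrosis factor receptor, was at 3.08 (1.66 in homeostatic HEC), or 1.73 as a log2 ratio of arithmetic means and 1.93 with a pseudocount of 10. Birc2, a ubiquitin ligase of the receptor complex, was at 2.37, and between 1.04 and 1.90 under 3 of the 12 alternatives.

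To show what sequence lies at the start of genes that stood high above BEC and of genes that did not, promoter windows of 5 of them are printed 5′ to 3′ in the sense of the gene. Each holds 250 bases before and 50 after a RefSeq start site of build GRCm38.p6, the first window listed where a gene has several. They are Glycam1 at chr15:103565032-103565331 on the minus strand, Ccl21a at chr4:42773942-42774241 on the minus strand, Ubd at chr17:37193642-37193941 on the plus strand, Nfkb2 at chr19:46304487-46304786 on the plus strand and Tnfaip3 at chr10:19015361-19015660 on the minus strand. Capitals mark matches to the κB consensus, the 10-base NF-κB motif, on either strand, and overlapping matches run together.
Glycam1: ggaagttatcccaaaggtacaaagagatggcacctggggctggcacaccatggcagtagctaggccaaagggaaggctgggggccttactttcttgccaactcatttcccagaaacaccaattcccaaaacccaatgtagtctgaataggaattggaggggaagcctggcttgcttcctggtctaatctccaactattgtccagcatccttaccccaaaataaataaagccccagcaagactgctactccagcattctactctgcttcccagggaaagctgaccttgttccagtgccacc
Ccl21a: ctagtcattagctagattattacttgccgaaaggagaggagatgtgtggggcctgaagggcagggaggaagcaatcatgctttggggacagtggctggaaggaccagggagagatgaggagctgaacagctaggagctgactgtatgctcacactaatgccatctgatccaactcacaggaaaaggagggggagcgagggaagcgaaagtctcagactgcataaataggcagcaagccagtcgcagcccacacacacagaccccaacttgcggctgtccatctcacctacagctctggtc
Ubd: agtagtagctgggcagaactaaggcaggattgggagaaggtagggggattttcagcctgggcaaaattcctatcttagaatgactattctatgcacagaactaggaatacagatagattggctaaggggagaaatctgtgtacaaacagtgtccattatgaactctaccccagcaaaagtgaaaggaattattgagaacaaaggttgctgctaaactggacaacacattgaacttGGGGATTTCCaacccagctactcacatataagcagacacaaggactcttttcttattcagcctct
Nfkb2: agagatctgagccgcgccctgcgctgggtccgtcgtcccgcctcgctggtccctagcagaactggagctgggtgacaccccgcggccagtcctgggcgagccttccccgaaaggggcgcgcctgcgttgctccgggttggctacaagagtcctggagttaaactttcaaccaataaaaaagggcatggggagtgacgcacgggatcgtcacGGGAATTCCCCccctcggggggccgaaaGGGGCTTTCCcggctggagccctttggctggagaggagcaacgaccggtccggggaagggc
Tnfaip3: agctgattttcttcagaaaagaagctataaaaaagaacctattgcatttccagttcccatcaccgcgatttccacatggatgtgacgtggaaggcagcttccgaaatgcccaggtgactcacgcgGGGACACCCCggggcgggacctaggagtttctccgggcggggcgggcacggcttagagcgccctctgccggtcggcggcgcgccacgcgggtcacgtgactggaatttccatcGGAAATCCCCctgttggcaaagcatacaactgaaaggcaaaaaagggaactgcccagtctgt

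Nfkb2 held 4 matches and Tnfaip3 3, counting palindromic and overlapping ones on each strand. Ubd held 1, which begins 15 bases before its start site. Glycam1 and Ccl21a held none in these windows. Among further windows searched but not printed, those of Chst4 and Gcnt1 held none and that of Cxcl1 held 2. Pglyrp1 and Spint2, also among the genes furthest above BEC, held a match in at least 1 window. So did Rgcc and Ednrb, among the genes furthest below. Of secreted products and protease inhibitors 3 of 13 held one (23.1%), and of capillary genes 3 of 12 (25%). Of all 32851 windows 8.46% held a match, of 27025 genes 9.55%, of the 18 genes of the receptor and NF-κB list with a window 7 (38.9%), and of the 12 sugar chain enzymes 1 (8.33%, St3gal6). Over the 21 lists the share ran from 0% to 40%. It was 2 of 5 among sialomucin carriers (40%), 3 of 9 among suppliers of sugar and sulfate donors (33.3%), 4 of 13 among antigen presentation genes (30.8%) and 3 of 10 among endothelial transcription factors (30%). The matches are a description of letters in these windows, and their part in any level was not tested.

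**Figure D3:**
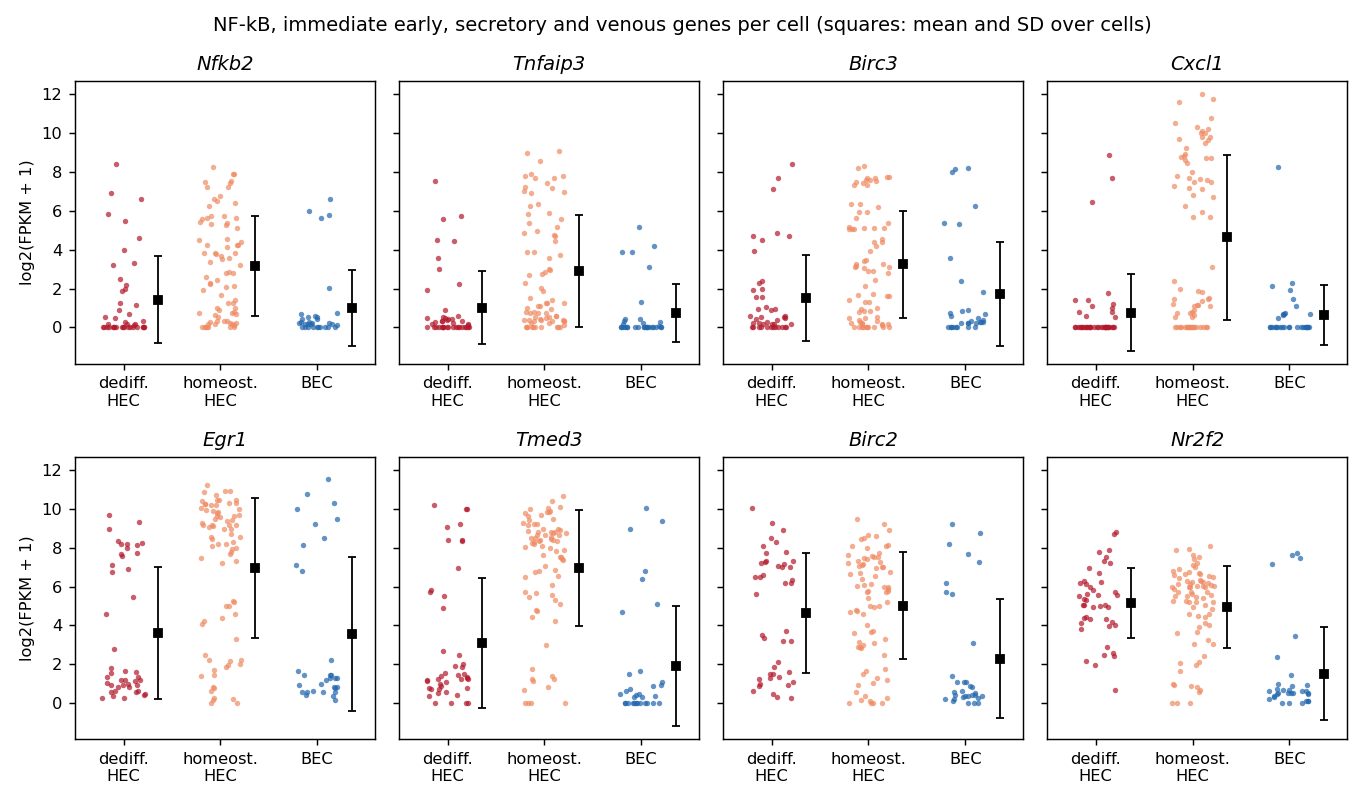
Level of 8 genes of NF-κB signalling, immediate early response, secretion and venous identity as log2(FPKM + 1), 1 point per cell, in dedifferentiated HEC, homeostatic HEC and BEC, with squares and bars for the mean and SD over cells. Nfkb2, Tnfaip3 and Cxcl1 sit near 0 in most dedifferentiated HEC and BEC, with 3 of 44, 39 of 79 and 1 of 32 cells of the 3 groups at an FPKM of 10 for Cxcl1, while Nr2f2 lies higher in both HEC groups than in most BEC.

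Venous genes were higher in most members, 8 of 10 measured with none lower, with a median of 3.01 (6 higher and 1 lower of 10 in homeostatic HEC, median 2.49). Nr2f2, the transcription factor COUP-TFII that specifies veins, had 0.6, 35.8 and 439 FPKM in dedifferentiated HEC and 0, 0.48 and 209 in BEC, reaching an FPKM of 10 in 37 of 44 and 4 of 32 cells. Its difference of 3.63 was 1.56 as a log2 ratio of arithmetic means and 1.71 with a pseudocount of 10, and 4 BEC reached the FPKM of 10. Vwf, von Willebrand factor of endothelial storage granules, had 0.55, 35.3 and 586 FPKM in dedifferentiated HEC, 0, 4.15 and 322 in homeostatic HEC and 0, 0.06 and 217 in BEC. Lrg1, a secreted glycoprotein of venules, had 273, 3535 and 9421 FPKM in dedifferentiated HEC and 0, 4.61 and 2047 in BEC, with all 44 dedifferentiated HEC and 9 of 32 BEC at 10 or more. The interleukin 1 receptor Il1r1 was at 2.61, the prostaglandin enzyme Ptgs1 at 2.75 and the semaphorin and VEGF co-receptor Nrp2 at 2.05, with 2.50, 1.38 and 0.93 in homeostatic HEC. As a log2 ratio of arithmetic means and with a pseudocount of 10, Il1r1 came to 0.98 and 1.64 and Ptgs1 to 1.73 and 1.36. Nrp2 stayed past 2 in 7 of the 12 alternatives. The venous genes Ephb4 and Aplnr, at -1.86 and -1.16, were not higher. Ackr1, Selp and Lrg1 also stand in other lists. Each dedifferentiated cell had 4 to 10 of the 10 measured venous genes at an FPKM of 10, and each BEC 0 to 5.

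Of 13 measured secreted products and protease inhibitors of HEC 10 were higher and none lower, with a median of 3.93. In homeostatic HEC 10 of 15 were higher, with a median of 3.98. Since the list was chosen with earlier results of these data known, its count and median are no test. Lrg1, Pglyrp1 and Spint2 of this list are also among the genes furthest above BEC. Pglyrp1, an antibacterial peptidoglycan-binding protein, had 3.02, 528 and 3401 FPKM in dedifferentiated HEC, 1.14, 1142 and 5262 in homeostatic HEC and 0, 0.85 and 124 in BEC. Spint2, a Kunitz-type inhibitor of serine proteases, was at 6.40, the cathepsin gene Ctsl at 4.13, the ganglioside activator Gm2a at 4.28 and the inhibitors Serpinb6a and Serpinb1a at 3.93 and 3.44. Serpina1e and Serpina1b, near-identical copies of α1-antitrypsin among which reads may be split, were at 4.90 and 2.57 (7.24 and 5.09 in homeostatic HEC), and Serpina1b came to between 1.48 and 1.99 under 3 of the 12 alternatives. Among complement and acute phase genes, 4 of 10 measured were higher, with a median of 1.85 (6 of 10 in homeostatic HEC, median 3.04). The signalling receptor chain gp130, Il6st, was at 5.01, complement factor B, Cfb, at 3.32 and the complement protease C1s1 at 2.70, with 4.59, 5.12 and 5.18 in homeostatic HEC. Cfb was at 1.90 as a log2 ratio of arithmetic means and C1s1 at 1.37 with a pseudocount of 10. Cd55, which protects cells from complement, was at 1.81 in dedifferentiated HEC and 4.43 in homeostatic HEC.

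Below BEC, part of the capillary list was far lower. Of 17 measured 9 were lower and 2 higher, with a median of -4.67 (9 lower and 1 higher in homeostatic HEC, median -5.04). The 9 lower members are all among the genes named above as furthest below BEC. Between the limits lay 6, among them Plvap, Timp4, Car4 and Lpl at 1.12, 0.11, -0.44 and -0.55. Car4 was at -4.99 as a log2 ratio of arithmetic means. Gpihbp1, which anchors lipoprotein lipase on capillaries, had 0, 1.04 and 3052 FPKM in dedifferentiated HEC and 1.44, 988 and 4871 in BEC. Rgcc, a regulator of the cell cycle, reached an FPKM of 1 in 3 of 44 dedifferentiated HEC and had 1.24, 919 and 4351 FPKM in BEC. Cd36, the fatty acid receptor, had 0, 0.055 and 317 FPKM in dedifferentiated HEC and 0, 185 and 3962 in BEC, and Rbp7, a retinol-binding protein, reached an FPKM of 10 in 2 of 44 and 25 of 32 cells. Ly6c1, an abundant surface protein of capillary and arterial endothelium, had 6.54, 27.8 and 7976 FPKM in dedifferentiated HEC and 1127, 5699 and 16631 in BEC, with 31 of 44 dedifferentiated HEC below every BEC and none at 0. The 2 higher members were Apoe and Fabp5. Apoe, a lipid carrier, had 727, 6820.4 and 20703 FPKM in dedifferentiated HEC and 0.67, 16.9 and 2099 in BEC, with 39 of 44 above every BEC. Fabp5, a fatty acid binding protein, was at 2.41 in dedifferentiated HEC and 0.10 in homeostatic HEC, and between 1.32 and 1.92 under 4 of the 12 alternatives, among them 1.48 in cells matched for gene number. Its relative Fabp4 and the water channel Aqp1 were at 1.17 and 1.22 in dedifferentiated HEC and at -1.19 and -0.67 in homeostatic HEC.

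**Figure D4:**
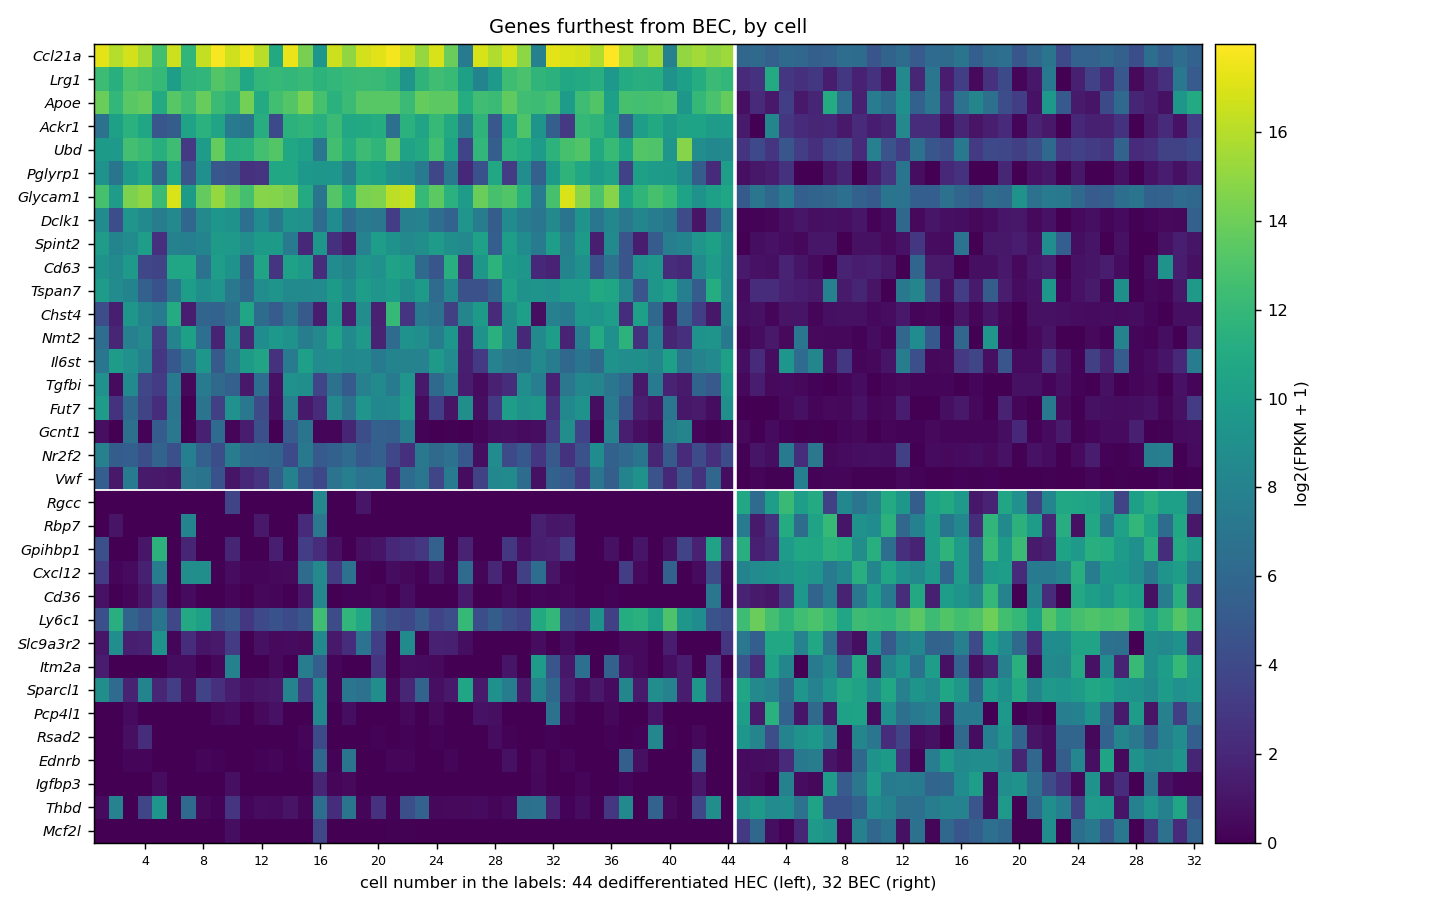
Level as log2(FPKM + 1) of the 15 genes furthest above BEC, of Fut7, Gcnt1, Nr2f2 and Vwf, and of the 15 genes furthest below BEC (rows), in each of 44 dedifferentiated HEC (columns left of the white line) and 32 BEC (right). Cell 16 on the left shows both blocks, with 13 of the 15 lower genes at an FPKM of 10 or more.

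Arterial, angiogenic and matrix genes were lower in part. Of 14 measured arterial and Notch genes 4 were lower and none higher, with a median of -1.28. Gja4, the arterial gap junction protein connexin 37, was listed at 0 in all 44 dedifferentiated HEC and had 0, 1.18 and 1847 FPKM in BEC, while 17 of 79 homeostatic HEC reached an FPKM of 1. Efnb2, the arterial ephrin, was at -4.12 and Sox17, an arterial transcription factor, at -2.15, or -1.33 in cells matched for gene number and -1.04 with a pseudocount of 10. Of 10 measured VEGF, Tie and apelin receptor genes 3 were lower and 1 higher, with a median of -1.03. The VEGF receptors Kdr and Flt1 and their partner Nrp1 were at -2.37, -2.87 and -3.30, and Nrp2 was at 2.05. The other 6 lay from -1.64 for Flt4 to 1.07 for Angpt2. Kdr and Flt1 came to -1.28 and -1.90 in even-numbered cells alone and to -1.59 and -1.89 with a pseudocount of 10. Of 15 basement membrane and matrix genes 4 were lower and none higher, with a median of -1.23. Col4a1, a chain of collagen IV, had 0.38, 8.84 and 159 FPKM in dedifferentiated HEC and 10.8, 173 and 830.3 in BEC, and Sparcl1, a matricellular protein, was at -5.12. Mef2c was the other lower transcription factor, at -3.01 (-1.92 with a pseudocount of 10), with 1 higher (Nr2f2) and 2 lower of 16 measured. Among flow and anticoagulant genes Thbd, thrombomodulin, and the kinase Sgk1 were lower, at -4.45 and -2.90, while the tissue factor inhibitor Tfpi and the protein C receptor Procr were higher, at 3.85 and 2.34. Sgk1 was at -1.78 as a log2 ratio of arithmetic means and Procr at 1.38 with a pseudocount of 10.

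**Figure D5:**
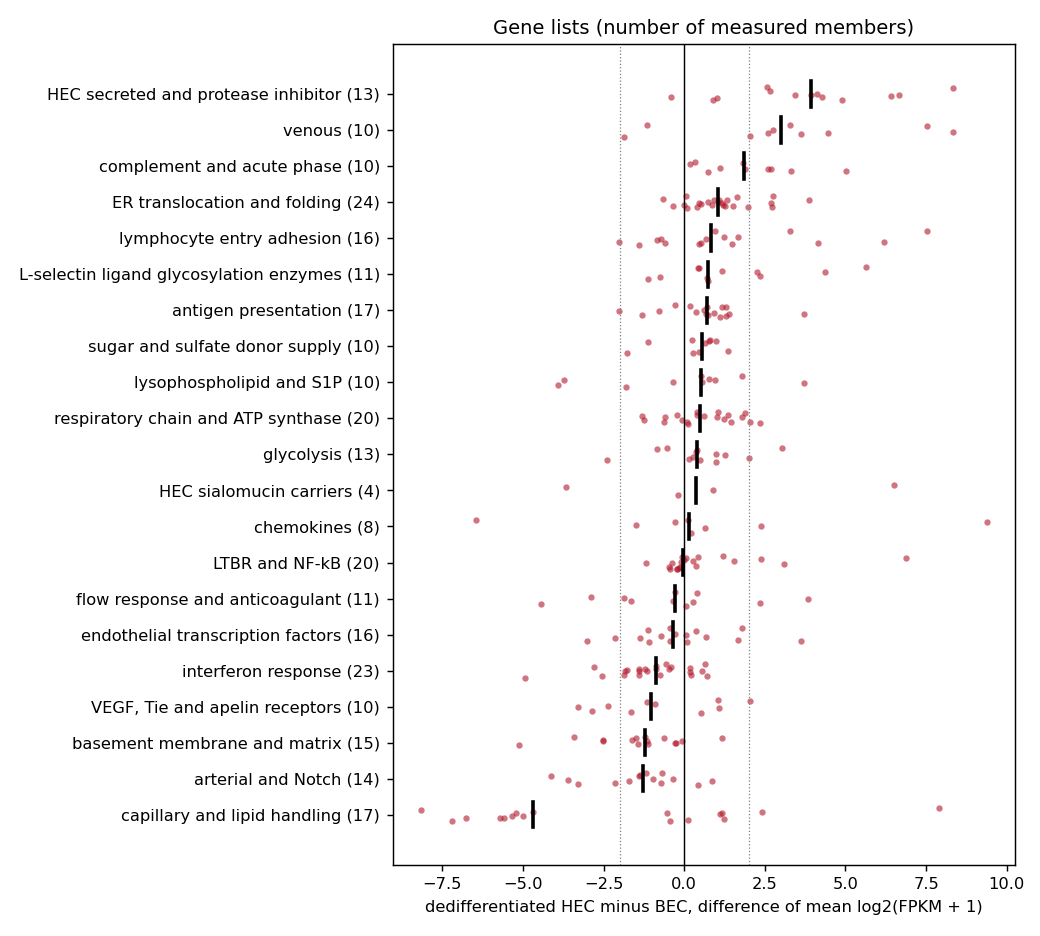
Difference of mean log2(FPKM + 1) of dedifferentiated HEC minus BEC for each measured member of 21 gene lists, 1 point per gene, with a thick bar at the median of each list, a line at the median of all measured genes (-0.01) and dotted lines at -2 and 2. Medians run from -4.67 for the capillary list to 3.93 for secreted products, and that of the receptor and NF-κB list is -0.05. The lists were chosen with earlier results of these data known.

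Secretory and immediate early genes are given because they bear on cell activity and on handling. Of 24 measured genes of translocation and folding in the endoplasmic reticulum 4 were higher and none lower, with a median of 1.05 (10 higher in homeostatic HEC, median 1.78). Of all genes 2.9% were higher in dedifferentiated HEC and 4.83% in homeostatic HEC, with medians of -0.01 and 0.28. As a log2 ratio of arithmetic means none of the 4 was past 2. Xbp1, a transcription factor of secretory cells, had 2.43, 265 and 1905 FPKM in dedifferentiated HEC and 0, 1.5 and 715 in BEC, a difference of 3.85, or 1.85 as such a ratio. The others were the translocation genes Sec61b (2.75) and Ssr2 (2.72) and the disulfide isomerase P4hb (2.69). As such a ratio Sec61b, Ssr2 and P4hb came to 1.32, 1.76 and 1.40, and with a pseudocount of 10 to 1.90, 1.60 and 1.82. P4hb was also at 1.91 in cells matched for gene number and at 1.90 in even-numbered cells. Tmed3, a cargo receptor between endoplasmic reticulum and Golgi, and Sec11c, a subunit of signal peptidase, were at 1.18 and 0.39 in dedifferentiated HEC and at 5.05 and 3.21 in homeostatic HEC. Of 14 dissociation and heat shock markers, 2 (Ier3 at 3.95 and Jun at 2.27) were higher and none lower, with a median of 1.03. Their summed FPKM ranged from 17.7 to 9330.1 in dedifferentiated HEC and from 5.68 to 9449.6 in BEC, with medians of 1135 in dedifferentiated HEC and 546 in BEC (1827 in homeostatic HEC). At an FPKM of 10, 38 of 44 dedifferentiated HEC, 71 of 79 homeostatic HEC and 19 of 32 BEC held 3 or more of the 14. None of the 14 was at 0 throughout, and their part in the differences above was not tested. Egr1 and Fos were at 0.05 and 1.43 in dedifferentiated HEC and at 3.42 and 3.93 in homeostatic HEC.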

How the data were processed

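The deposited table holds FPKM made by the authors, with 2 decimals, for 24049 gene symbols. The submitters' processing notes name RSEM 1.2.18, CASAVA 1.8 and the build mm10, without a role for each. No annotation or filter is given in the sources used here. Cells were grouped by title, condition and treatment in the labels. In dedifferentiated HEC 77.0% of values were 0 and in BEC 77.1%, and the highest correlation of any of 2850 pairs of cells was 0.65, so no cell was counted as a copy. No doublet caller was run. No count model fits FPKM, so none was run. Depth was approximated from the steps of low FPKM in 2061 genes with 1 transcript.

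Means of log2(FPKM + 1), differences, shares and ranges were computed with Python 3.11.15, numpy 2.4.6, pandas 2.3.3 and scipy 1.17.1, and drawn with matplotlib 3.10.9. The difference on this scale understates the change of low genes. The calculation was tested on simulated data. Genes furthest from BEC were the 15 in each direction among those that reached an FPKM of 1 in at least 50% of 1 group, without predicted, clone, ribosomal, haemoglobin and small RNA names, and members of the lists could be named in addition. The 21 gene lists and 12 marker lists, of which 2 symbols had no match, and the members were chosen with earlier results of these data known. Promoter windows came from RefSeq (GRCm38.p6), and 22538 symbols (93.7%) matched a RefSeq symbol. Alternatives were other pseudocounts, scalings, filters, sizes and choices of cells.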

Additional observations from a re-analysis of the deposited data

How the results depend on the processing

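No paired analysis was possible because a number in a title only names a cell and no result comes from a test. All 30 genes furthest from BEC stayed past 2 under each of 12 alternatives for single genes. They were picked for large differences, so this says little about smaller ones. Of 83 list members or such genes past 2, 47 stayed past it in all 12 and none changed sign. The counts of genes moved more. With a pseudocount of 0.1, 622 genes were higher and 463 lower, with 51 list members lower, and with a pseudocount of 10, 69 were higher and 39 lower, with 45 list members past 2, of which 25 were higher and 20 lower. With all cells scaled to an equal sum 299 genes were lower, without Glycam1 and Ccl21a in that sum 261, and in even-numbered cells 252. Log2 ratios of arithmetic means gave 1054 higher and 763 lower. At a size of 1 there were 950 higher and 792 lower, and at a size of 3, 76 and 45. Chosen after seeing the data, values under an FPKM of 10 set to 0 gave 229 higher and 197 lower, and leaving out dedifferentiated cell 16 gave 235 and 153. Without the highest BEC of each gene, 27 dedifferentiated HEC were above every BEC for Fut7 and 8 for Enpp2, and 2 for Enpp2 with all cells scaled to an equal sum. A pseudocount weighs low levels more or less by its construction, and the causes of the other shifts were not tested. At these depths an FPKM below 1 may be 0 or a low level, and 1 sample per group limits every statement to these cells.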

Other observations

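Interferon response genes were lower or between the limits in dedifferentiated HEC relative to BEC: of 23 measured 3 were lower and none higher, with a median of -0.87 where that of all genes was -0.01. In homeostatic HEC the median was -0.56 where that of all genes was 0.28, so that relative to all genes the list was at -0.87 in dedifferentiated HEC and at -0.84 in homeostatic HEC. Rsad2, the antiviral protein viperin, had 0, 0 and 326 FPKM as lowest, median and highest in dedifferentiated HEC and 0, 57.9 and 777 in BEC. The interferon regulator Irf7 and the antiviral gene Ifit3 were at -2.81 and -2.54 (-1.66 and -2.42 in homeostatic HEC). With a pseudocount of 10 they came to -1.65 and -1.55, and Ifit3 was at -0.78 as a log2 ratio of arithmetic means, with 1 dedifferentiated cell at 4075 FPKM. Of 17 measured antigen presentation genes 1 was higher and 1 lower, with a median of 0.71 (2 higher and none lower in homeostatic HEC, median 0.56). Cd74, the class II invariant chain, was at 3.72 (5.17 in homeostatic HEC). It had 0.77, 55.4 and 3357 FPKM in dedifferentiated HEC and 0, 1.05 and 869 in BEC. The class II genes H2-Aa, H2-Ab1 and H2-Eb1 lay between the limits, at 1.30, 1.38 and 1.29. The immunoproteasome subunit Psmb9 was lower, at -2.02, but past -2 in only 7 of the 12 alternatives and at -0.46 in odd-numbered cells.

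Of 13 measured glycolysis genes 1 was higher, Pkm at 3.02, and 1 lower, Eno1 at -2.39, where 2.9% and 1.77% of all genes were. Gapdh, at 1.999, lay just short of the limit, stayed under it in 7 of the 12 alternatives and reached at most 2.24. Eno1 came to between -1.30 and -1.96 under 4 of the 12 alternatives, and 29 of 44 dedifferentiated HEC and 24 of 32 BEC reached an FPKM of 1 for Eno1, of which near copies can share the reads. Of 20 respiratory chain genes, Cox4i1 and Ndufa1 were higher, at 2.36 and 2.03, the first past 2 in 9 and the second in 5 of the 12 alternatives. Tgfbi, a matrix protein induced by transforming growth factor β, and the kinase gene Dclk1 also stood above BEC in most cells. Tgfbi had 0.3, 73.3 and 737 FPKM in dedifferentiated HEC and 0, 0.23 and 1.63 in BEC, with 36 of 44 cells above every BEC, and Dclk1 had 0.97, 191 and 703 FPKM in dedifferentiated HEC and 0, 0.47 and 67.7 in BEC, with 36 above. Dedifferentiated cell 31 had 172 FPKM of Glycam1 and 237 of Ccl21a, near the lowest of its group in both, and an FPKM of 10 or more for 13 of the 15 genes furthest above BEC.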
